A study of Mus musculus with 6 samples.

Results

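Genes that carry adrenergic signals in the heart muscle cell, 9 in all, were followed here in mouse cardiomyocytes with or without a gene trap in the Y-linked gene Uty. They were taken by name from the deposited table of 54232 genes, and all 9 of 9 were found once: the receptors Adrb1, Adra1a and Adra1b, the adenylyl cyclases Adcy5 and Adcy6, the phosphodiesterases Pde3a, Pde4b and Pde4d, and Rgs2, which encodes a regulator of G protein signalling. Cells came from adult male mice whose Y chromosome carried either the trap UtyGt(XS0378)Wtsi within an intron of Uty (UtyGT) or the wild-type sequence (WT) of the isogenic strain C57BL/6.Y<129P2>. Both Y chromosomes stem from 129P2/OlaHsd and sit on a C57BL/6J background, the trap line was derived from embryonic stem cells, and the trap is present in every cell of the animal rather than in heart muscle alone. The study obtained the cells by perfusing hearts with collagenase, sedimenting them by gravity and plating them on laminin for 4 h before RNA was taken, with 3 isolations a strain, named here WT e, f and g and UtyGT d, e and f as in their labels. No adrenergic agonist or blocker is named for any of the 6 libraries, and the ages of the mice are not given in the sources used here.

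In cardiomyocytes, noradrenaline and adrenaline reach the beta1 receptor, which works through the G protein Gs to activate adenylyl cyclase, and alpha1 receptors, which work through Gq and phospholipase C. Cyclic AMP then activates protein kinase A, which raises the force and rate of the heartbeat, and phosphodiesterases break cyclic AMP down and confine it to parts of the cell. RGS proteins end the signal by speeding the hydrolysis of GTP on the G protein alpha subunit, and Rgs2 is known for acting on Gq.

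The label of the cells was borne out by their markers, since 8 ventricular cardiomyocyte genes summed to between 1533348 and 1646429 normalized counts a library, where a normalized count is a read count divided by the size factor of its library. The gene-trap labels were borne out by Uty, which had 877 to 1093 normalized counts in WT and 8.03 to 13.9 in UtyGT. The trap line also differed in neighbouring Y-linked genes, with Ddx3y at 13.1% and Eif2s3y at 428% of the WT mean, so that the 3 genes cannot be told apart as the source of a difference. Libraries held 28283654 to 48377453 reads in genes, of which the mitochondrial genome took 46.9% to 54.7% in WT and 39.8% to 44.8% in UtyGT. Further features set UtyGT libraries apart from each other. UtyGT f had reads in 28619 genes against 21615 to 22917 in the other 5, the 6 atrial markers summed to 10039 and 6201 normalized counts in UtyGT e and f against 914 to 1148 in the other 4, and the 8 endothelial markers summed to 18768 and 20112 in UtyGT d and f against 11899 to 14392 in the other 4. In such bulk RNA, fewer cells of a type and less RNA per cell cannot be told apart.

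Of the 9 genes, only Rgs2 rose with the trap in this comparison, none fell, and 8 did not pass. At an unadjusted limma p under 0.05, 3 were higher and 0 lower in UtyGT, where at least 3849 of all 13875 genes tested were under it in either direction. Calls by edgeR and DESeq2 were also 1 gene that rose and 0 that fell, against 11.1% and 11.7% of all genes tested called in either direction. Genes were compared with limma on log2 of the normalized count, and "rose" and "fell" are used of genes with an adjusted p (Benjamini-Hochberg, over all 13875 genes tested) under 0.05. Over all genes tested 10.7% passed in either direction, 4.55% rose and 6.12% fell, so that 1 gene in 9 is close to the share in the whole table. The groups did not overlap in 3 of the 9 genes, namely Rgs2, Adcy5 and Adcy6, each with all UtyGT libraries above all WT libraries, where 31.9% of all genes tested had no overlap, 14.2% with UtyGT higher and 17.7% with UtyGT lower. The median log2 fold change over the 9 genes was 0.04, against 0 over all genes tested, and ranged from -0.15 for Adrb1 to 1.15 for Rgs2.

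**Figure D1:**
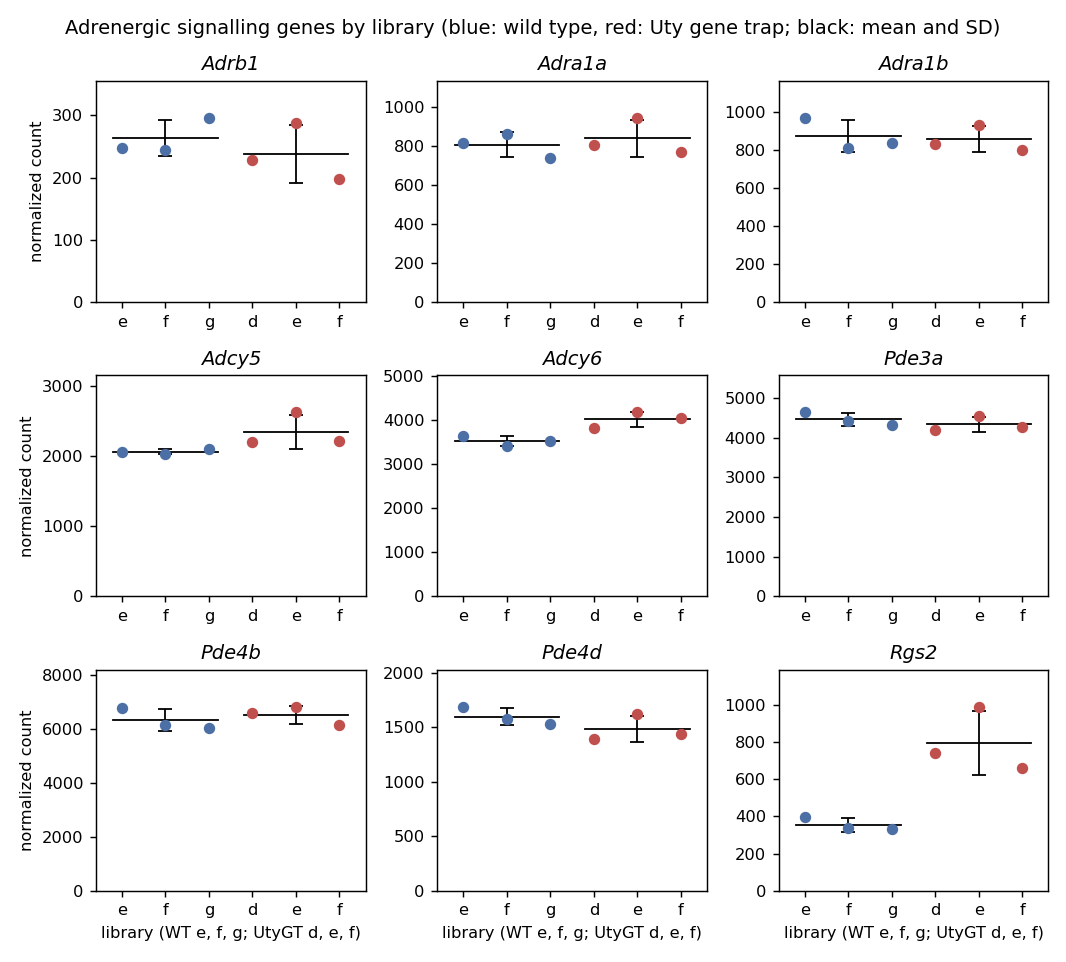
Normalized counts (vertical axes, each starting at 0) of the 9 genes in the 3 WT libraries (blue) and the 3 UtyGT libraries (red), 1 point a library, with the mean and SD of each group in black. Rgs2 lies between 331 and 397 in WT and between 660 and 990 in UtyGT, and in each of the 9 panels UtyGT e is the highest of the red points.

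Rgs2 (ENSMUSG00000026360; chromosome 1, 143999338 to 144004161, minus strand, GRCm38) is a short gene whose longest coding transcript has 5 exons. Its proximal promoter is shown because this was the gene that changed, and because Rgs2 is known in several cell types as a gene that cyclic AMP induces. That of Pde4b, another gene known to respond to cyclic AMP but without a change here, is shown beside it. Both windows run from 250 bases before to 50 after a RefSeq transcription start (GRCm38.p6), at chr1:144004100-144004399 on the minus strand for Rgs2 and chr4:102421305-102421604 on the plus strand for Pde4b, where the table holds 4 windows and the one shown, chosen after the search, is the only one with the motif marked here. Capitals mark the core of the cyclic AMP response element, TGACG on either strand.
Rgs2: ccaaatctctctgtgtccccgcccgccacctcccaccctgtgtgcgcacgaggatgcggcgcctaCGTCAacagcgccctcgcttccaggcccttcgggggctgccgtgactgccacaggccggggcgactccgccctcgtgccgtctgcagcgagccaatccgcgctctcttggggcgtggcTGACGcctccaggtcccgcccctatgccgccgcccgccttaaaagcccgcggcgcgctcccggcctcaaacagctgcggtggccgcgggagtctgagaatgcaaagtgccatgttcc
Pde4b: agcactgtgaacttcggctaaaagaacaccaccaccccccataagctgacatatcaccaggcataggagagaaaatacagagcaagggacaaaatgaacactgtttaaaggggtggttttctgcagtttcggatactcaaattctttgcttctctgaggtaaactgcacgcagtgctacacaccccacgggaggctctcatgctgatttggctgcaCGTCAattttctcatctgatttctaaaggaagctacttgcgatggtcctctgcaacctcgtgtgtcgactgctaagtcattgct

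The core occurred at 2 places in the Rgs2 window, with its first base at -185 and -67 from the start, and at 1 place, -34, in the Pde4b window. Among 32851 RefSeq promoter windows of this length, 20.8% held the core at least once and 5.01% at 2 or more places. The full element TGACGTCA, which contains the core, was in 1.79% of all windows and in none of the 10 windows of the 6 genes that matched the table (Adrb1, Adra1b, Adcy5, Pde4b, Pde4d and Rgs2). The core was in 3 of these 10 windows, against 20.8% of all windows, and these belong to 3 genes. These are matches of letters and were not tested as binding sites.

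Rgs2 had 397, 336 and 331 normalized counts in WT e, f and g and 740, 990 and 660 in UtyGT d, e and f. Every UtyGT library stood well above every WT library, with UtyGT e the highest, and the means were 355 ± 36.3 and 796 ± 172 (SD, n = 3 each). The log2 fold change was 1.15 ± 0.13 (SE, limma adjusted p = 0.00055), which is 2.22-fold with a 95% interval from 1.81 to 2.72, and Rgs2 ranked 49 by p among the 13875 genes. These values rest on 269 to 430 reads in WT and 575 to 1118 in UtyGT. Leaving out each library in turn kept the log2 fold change between 0.98 and 1.27 and the limma adjusted p at or below 0.00518. Without the variance trend in the moderation of limma, the adjusted p was 0.0489. No exon of another annotated gene overlapped its exons, and none of its 3626 windows of 50 bases, the read length, occurred in the transcripts of another gene.

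Markers of other cell types also differed between the libraries, and Rgs2 is set beside them here. Relative to the WT mean, Rgs2 stood 1.06, 1.48 and 0.90 higher on the log2 scale in UtyGT d, e and f. The median of the 8 fibroblast markers was 0.69, 0.08 and 0.71 and that of the 8 endothelial markers 0.65, 0.02 and 0.74 in the same order, both lowest in UtyGT e. The median of the 8 smooth muscle and pericyte markers was 0.64, 0.34 and 0.95, and that of the 8 macrophage and leukocyte markers 0.59, 0.47 and 0.59, so that both medians stood above their WT values in all 3 UtyGT libraries. The sums of these lists ran, in WT and then in UtyGT, from 3216 to 4804 and from 3974 to 5515 normalized counts for fibroblasts, from 12835 to 14392 and from 11899 to 20112 for endothelium, from 19250 to 19898 and from 17645 to 21106 for smooth muscle, and from 281 to 451 and from 410 to 503 for macrophages. In the same order 3, 2, 4 and 2 of the 8 markers rose and 0 fell. Most of the smooth muscle sum was Abcc9 and Rgs5, with means of 12135 and 5323 in WT and 11483 and 5479 in UtyGT. Neither of these 2 passed, and the 4 of that list that rose were Myh11 (means of 299 and 579), Tagln, Cnn1 and Kcnj8. The atrial list had medians of 0.70, 3.82 and 3.18, with 4 of 6 markers that rose and 1 that fell. The atrial sum ran from 914 to 1118 normalized counts in WT and was 1148, 10039 and 6201 in UtyGT d, e and f, highest in the same library as Rgs2. In UtyGT d, 4 of the 6 atrial markers (Myl7, Myl4, Sln and Mybphl) exceeded every WT library. Bmp10, the atrial marker that fell, had 0, 0 and 2.29 normalized counts in UtyGT d, e and f against 69.9 to 119 in WT. The neuronal and Schwann list, with only 2 of its 6 markers tested and neither called, had medians of 0.44, 0.36 and 0.31 in UtyGT d, e and f. No marker of these lists was at 0 in all libraries. The share of mitochondrial reads was lower in each UtyGT library than in each WT library. The part of these markers and of this share in the result was not tested.

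**Figure D2:**
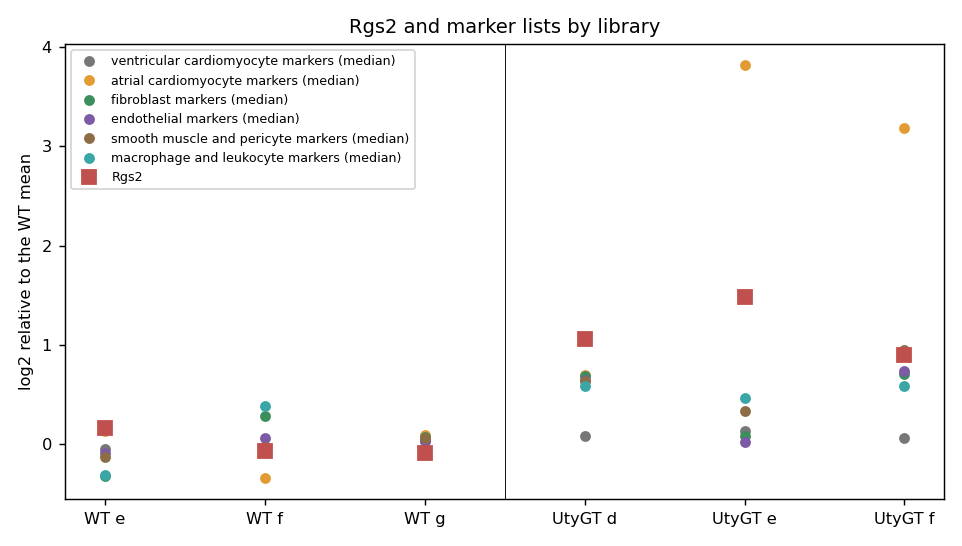
Level of Rgs2 (red squares) and marker medians (circles) in the 6 libraries, as log2 relative to the WT mean of each gene. The lists drawn are ventricular, atrial, fibroblast, endothelial, smooth muscle and macrophage. Rgs2 stands at 1.06, 1.48 and 0.90 in UtyGT d, e and f, the atrial median at 0.70, 3.82 and 3.18, the endothelial median at 0.65, 0.02 and 0.74, and the smooth muscle median at 0.64, 0.34 and 0.95.

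By a fixed rule, the genes whose 6 log2 values, each centred on the WT mean, lay nearest to those of Rgs2 among 10798 genes were Fos, Gm24265 and Cish, with root mean square differences of 0.106, 0.137 and 0.155. Fos, a subunit of the AP-1 transcription factor and an early response gene, had 1709 ± 32.0 normalized counts in WT and 3946 ± 594 in UtyGT, and like Rgs2 it was highest in UtyGT e. Cish, which encodes a suppressor of cytokine signalling, had 1024 ± 85.6 and 2322 ± 295. The likeness is a description over 6 libraries, most of it the difference between the groups.

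The 3 receptor genes did not pass, and their groups overlapped. Adrb1 (ENSMUSG00000035283; chromosome 19, 56722199 to 56733113, plus strand), which encodes the beta1 receptor, the main adrenergic receptor of heart muscle, had 247, 245 and 296 normalized counts in WT e, f and g and 229, 288 and 197 in UtyGT d, e and f. UtyGT d and f lay below the WT range and UtyGT e within it, with a difference of -0.15 ± 0.14 on the log2 scale (limma adjusted p = 0.524). It had 172 to 384 reads a library, and its 95% interval ran from 0.725-fold to 1.12-fold. Adra1a (ENSMUSG00000045875; chromosome 14, 66635251 to 66771168, plus strand), for the alpha1A receptor, had 818, 864 and 740 in WT and 804, 945 and 768 in UtyGT, in the same order of libraries. Adra1b (ENSMUSG00000050541; chromosome 11, 43774606 to 43901210, minus strand), for the alpha1B receptor, had 968, 811 and 836 in WT and 833, 931 and 801 in UtyGT. Neither alpha1 gene showed a shift larger than the spread between libraries, since they differed by 0.05 ± 0.09 and -0.03 ± 0.09 on the log2 scale (limma adjusted p = 0.765 and 0.880) and 95% intervals from 0.899-fold to 1.2-fold and from 0.857-fold to 1.12-fold.

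Both cyclase genes were higher in every UtyGT library than in any WT library, by amounts that did not pass the threshold. Adcy5 and Adcy6 encode the main adenylyl cyclases of adult heart muscle, which Gs activates and Gi and calcium inhibit. Adcy6 (ENSMUSG00000022994; chromosome 15, 98589973 to 98610076, minus strand) had 3634, 3405 and 3518 normalized counts in WT e, f and g and 3828, 4181 and 4048 in UtyGT d, e and f. The means, 3519 ± 115 and 4019 ± 178 (SD, n = 3 each), differed by 14.2%, and the log2 fold change was 0.19 ± 0.06 (limma adjusted p = 0.0709, unadjusted p = 0.0102). The spread of Adcy6 within groups was small, since 93.1% of the genes tested varied more on the log2 scale. Adcy5 (ENSMUSG00000022840; chromosome 16, 35154877 to 35305738, plus strand) had 2067, 2033 and 2098 in WT and 2205, 2627 and 2215 in UtyGT. UtyGT e stood apart there, and the log2 fold change of 0.18 ± 0.08 (limma adjusted p = 0.146) was 0.10 without it. The 95% intervals ran from 1.04-fold to 1.26-fold for Adcy6 and from 1.01-fold to 1.27-fold for Adcy5, before any adjustment over genes. Their calls depended on the scaling of the libraries: with upper-quartile scaling the limma adjusted p of Adcy6 was 0.0356, and with quantile normalization that of Adcy6 was 0.0154 and that of Adcy5 0.0493. Exons of the gene Gm29331 on the opposite strand covered 8.92% of the exon bases of Adcy6, and the sources used here do not say whether reads were counted by strand.

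None of the 3 phosphodiesterase genes passed, and their groups overlapped. Pde3a (ENSMUSG00000041741; chromosome 6, 141249269 to 141507448, plus strand), which encodes the cyclic GMP-inhibited enzyme that acts near the sarcoplasmic reticulum, had 4645, 4430 and 4317 normalized counts in WT e, f and g and 4193, 4560 and 4275 in UtyGT d, e and f. The difference was -0.04 ± 0.06 on the log2 scale (limma adjusted p = 0.722), with a 95% interval from 0.884-fold to 1.07-fold. Pde4b (ENSMUSG00000028525; chromosome 4, 102087543 to 102607259, plus strand) and Pde4d encode cyclic AMP-specific enzymes that are found near L-type calcium channels and beta receptors. Pde4b had 6778, 6150 and 6019 in WT and 6581, 6810 and 6145 in UtyGT, and its 95% interval ran from 0.930-fold to 1.14-fold. Pde4d (ENSMUSG00000021699; chromosome 13, 108449948 to 109953461, plus strand) had 1689, 1578 and 1530 in WT and 1394, 1620 and 1435 in UtyGT. UtyGT d and f lay below the WT range for Pde4d and UtyGT e within it, with a difference of -0.11 ± 0.08 on the log2 scale (limma adjusted p = 0.378) and a 95% interval from 0.826-fold to 1.04-fold. Reads were counted per gene, so the 13 annotated transcripts of Pde4b and the 20 of Pde4d cannot be told apart, and exons of Gm28523 on the opposite strand covered 5.82% of the exon bases of Pde3a.

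**Figure D3:**
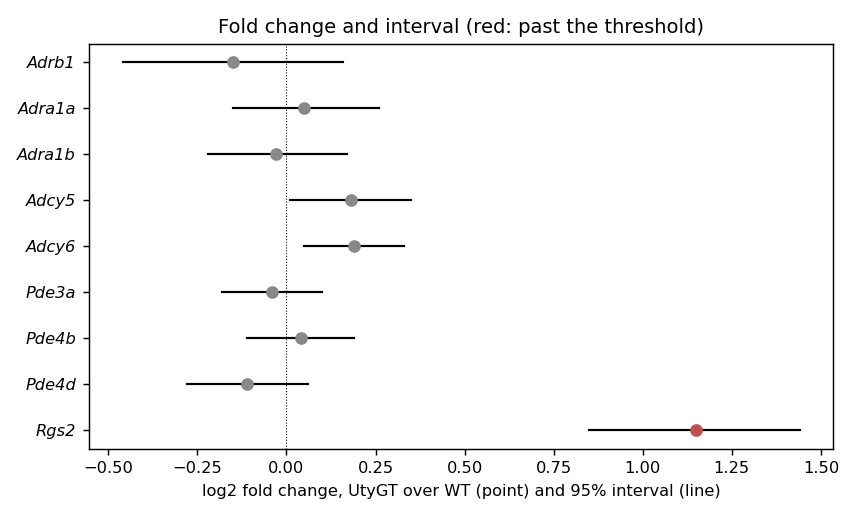
Log2 fold change of UtyGT over WT (points) with its 95% interval from limma (lines) for the 9 genes. Rgs2, in red, lies at 1.15, and the other 8 genes lie between -0.15 and 0.19.

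UtyGT e had the highest normalized count of the 3 UtyGT libraries for all 9 genes, Rgs2 included, whereas over the 13875 genes tested it was the highest in 42.5%. In WT the highest library was e for 6 of the 9 genes, g for 2 and f for 1, against 36.6%, 32.5% and 30.9% over all genes tested. UtyGT e was also the UtyGT library with the highest atrial sum, 10039 against 1148 and 6201 in UtyGT d and f. It had the lowest endothelial, fibroblast, macrophage and smooth muscle sums of the UtyGT libraries, the last made up mostly of Abcc9 and Rgs5. The part of these markers in the pattern was not tested.

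Ratios between related genes within a library remove the scaling of that library. The ratio of Pde4b to Pde4d was 4.01, 3.90 and 3.93 in WT e, f and g and 4.72, 4.2 and 4.28 in UtyGT d, e and f. All UtyGT libraries were thus above all WT libraries, with a difference of 0.15 in mean log2 ratio (exact two-sided permutation p = 0.1, the smallest that 3 against 3 allows, and 0.5 after Benjamini-Hochberg adjustment over the 5 ratios compared). The ratio of Pde3a to Pde4d was 2.75 to 2.82 in WT and 2.82 to 3.01 in UtyGT (exact permutation p = 0.2, adjusted 0.5). The ratio of Adcy5 to Adcy6 was 0.569 to 0.597 in WT and 0.547 to 0.628 in UtyGT, with equal averages to within 0.01 on the log2 scale (exact permutation p = 1, adjusted 1). The ratios of Adra1a to Adra1b and of Adrb1 to both alpha1 genes summed overlapped between groups, with exact permutation p = 0.5 each and 0.625 adjusted.

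Levels of different genes were compared per kilobase of merged annotated exon. In WT the highest level was that of Pde4b (598 ± 38.5 normalized counts per kb), followed by Adcy6 (519 ± 16.9), Pde3a (350 ± 13.1), Adcy5 (288 ± 4.47), Adra1b (258 ± 25), Pde4d (133 ± 6.82), Rgs2 (97.8 ± 10), Adra1a (92.5 ± 7.20) and Adrb1 (77.6 ± 8.57). The library ranges of Adcy5 and Adra1b overlapped, and so did those of Rgs2 and Adra1a and of Adra1a and Adrb1, so their order within each pair is not resolved. In UtyGT the order of the means was the same except that Rgs2 stood above Pde4d, while the ranges of Pde4b and Adcy6 and of Pde3a and Adcy5 overlapped and left those pairs unresolved. At 220 ± 47.4 per kb in UtyGT its range overlapped that of Adra1b (253 ± 20) and lay above that of Pde4d (124 ± 9.99). The order depends on the length used, most of all for Pde4b, Pde4d and Adra1a. Per kilobase of the longest coding transcript, Pde4b stood at 1467 and Pde4d at 380 per kb in WT, and Pde4d was then the third of the 9.

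The wider pathway was described with 12 lists of 124 genes, of which 110 were tested: 9 rose, 9 fell and 92 did not pass, or 16.4% called against 10.7% of all genes. Their median log2 fold change was -0.05. The list of 10 early genes gave 5 of the calls that rose and 1 that fell. It was written with the rise of such genes in these libraries already known, so the share called depends on that choice. The counts rest on few libraries, with 4 that rose and 3 that fell without WT e, 3 and 3 without WT f, 5 and 8 without WT g, 6 and 4 without UtyGT d, 15 and 14 without UtyGT e, and 7 and 8 without UtyGT f. Without the variance trend 2 rose, Fos and Nr4a1, and 0 fell.

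**Figure D4:**
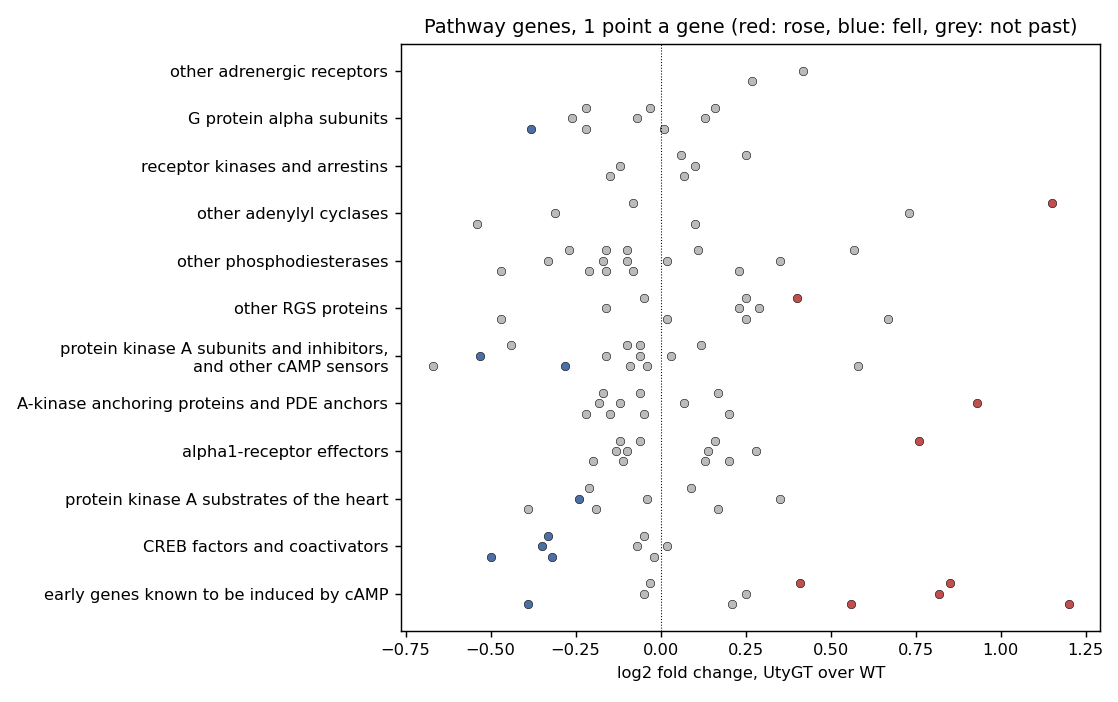
Log2 fold change of UtyGT over WT (horizontal axis) for the tested genes of the 12 pathway lists, 1 point a gene, in red where it rose, in blue where it fell and in grey where it did not pass. The 4 blue points of the CREB list lie between -0.50 and -0.32, and no gene of the receptor kinase or phosphodiesterase lists is coloured.

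Nearest to the 9 genes, little else passed by limma, with 1 of 6 other cyclase genes (16.7%) called against 10.7% of all genes tested. Of these 6, 3 had an unadjusted limma p under 0.05. For the same 6, edgeR called 1 and DESeq2 called 2, against 11.1% and 11.7% of all genes tested. Adcy1 had means of 101 in WT and 172 in UtyGT, with overlapping groups, and did not pass (log2 fold change 0.73 ± 0.23, limma adjusted p = 0.0621). Of 15 other phosphodiesterase genes tested 0 rose and 0 fell, with log2 fold changes from -0.47 to 0.57. At an unadjusted limma p under 0.05 there were 4 of them, as there were at least 3849 of all 13875 genes tested. Among these phosphodiesterase genes, Pde8a (-0.27 ± 0.08, limma adjusted p = 0.0527) and Pde5a (0.57 ± 0.20, limma adjusted p = 0.0825) came nearest to a call. Of the 15, edgeR called 1 and DESeq2 0. Of 6 receptor kinase and arrestin genes 0 rose and 0 fell by limma (0 at unadjusted p under 0.05, 0 by edgeR and 0 by DESeq2), with log2 fold changes between -0.15 for Grk2, the kinase that turns off beta receptors, and 0.25 for Grk6. Of 6 other cyclase genes Adcy7 rose, from 12.6, 20 and 17.7 normalized counts in WT e, f and g to 37.7, 30.4 and 47.0 in UtyGT d, e and f (log2 fold change 1.15 ± 0.28, limma adjusted p = 0.0261), a low level at which leaving out any library but UtyGT e ended the call (adjusted p from 0.0551 to 0.110).

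Of 9 G protein genes and 10 other RGS genes tested, 1 of each list passed, or 11.1% and 10% against 10.7% of all genes tested. Among the 12 alpha1-receptor effectors named below, 1 passed as well (8.33%). Gnaq, the alpha subunit of Gq that Rgs2 acts on, fell from 1203, 1199 and 1111 normalized counts in WT e, f and g to 869, 850 and 989 in UtyGT d, e and f (log2 fold change -0.38 ± 0.08, limma adjusted p = 0.0135), with all UtyGT libraries lower and no overlap, as in 17.7% of all genes tested. The call ended without WT e, WT f or UtyGT d (limma adjusted p = 0.0707, 0.0734 and 0.0564). Gna11, the other alpha subunit of this class in the list, differed by 0.13 ± 0.07 on the log2 scale (limma adjusted p = 0.272), and Gnas, for Gs, -0.03 ± 0.07 (limma adjusted p = 0.824). Rgs6, which acts on Gi and Go, rose by 0.40 ± 0.09 on the log2 scale (limma adjusted p = 0.0190, and 0.0623, 0.0617 and 0.0603 without WT f, WT g and UtyGT d). Of the 12 alpha1-receptor effectors Itpr3, an inositol trisphosphate receptor gene, rose (0.76 ± 0.20, limma adjusted p = 0.0344), with 161, 98.4 and 170 normalized counts in UtyGT d, e and f against 73.1 to 90.2 in WT, and its call ended without any library but UtyGT e (adjusted p from 0.0595 to 0.140). Like the endothelial sum (18768, 11899 and 20112), Itpr3 was high in UtyGT d and f and lower in e, and the part of endothelial RNA in its rise was not tested. The phospholipase C beta genes Plcb1, Plcb2, Plcb3 and Plcb4 did not pass.

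Of 13 tested genes for protein kinase A and other sensors of cyclic AMP, 2 fell by limma, both of the Popeye-domain family, and 0 rose (DESeq2 called 3). The share called was 15.4% here, 9.09% for anchoring genes and 12.5% for protein kinase A substrates, against 10.7% of all genes tested. Popdc3 and Bves (also known as Popdc1) encode membrane proteins of muscle that bind cyclic AMP. Popdc3 had 937, 916 and 834 normalized counts in WT e, f and g and 593, 704 and 563 in UtyGT d, e and f (log2 fold change -0.53 ± 0.09, limma adjusted p = 0.00572), and it kept its call without any single library. Bves fell by 0.28 on the log2 scale (limma adjusted p = 0.0387), a call lost without WT e, WT f, UtyGT d or UtyGT f (adjusted p from 0.0639 to 0.171) and with quantile normalization (0.0698). For Popdc2, of the same family, the log2 value was -0.06 ± 0.08 (limma adjusted p = 0.627). The catalytic subunit genes Prkaca and Prkacb differed by 0.12 ± 0.07 and -0.04 ± 0.07 on the log2 scale (limma adjusted p = 0.313 and 0.729). Of 11 anchoring genes Akap5 rose (0.93 ± 0.23, limma adjusted p = 0.0261) from 30.9 to 35.5 normalized counts in WT to 86.0, 50.4 and 63.1 in UtyGT d, e and f, and lost its call without WT e, f or g or UtyGT d (adjusted p from 0.0566 to 0.110). Of 8 protein kinase A substrates Cacna1c, the pore-forming subunit of the L-type calcium channel, fell from 14855, 13993 and 13591 to 12191, 11848 and 11900 (log2 fold change -0.24 ± 0.06, limma adjusted p = 0.0334), a call that ended without WT e, WT f, UtyGT d or UtyGT f (adjusted p from 0.0527 to 0.148).

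Of 8 genes for CREB factors and coactivators, 4 fell and 0 rose, against 6.12% that fell and 4.55% that rose over all genes tested. The list median was -0.20, and the list was chosen with earlier results of these data known. Crtc2, a coactivator that moves to the nucleus when cyclic AMP rises, had 1154, 1238 and 1072 normalized counts in WT e, f and g and 841, 754 and 853 in UtyGT d, e and f (log2 fold change -0.50 ± 0.08, limma adjusted p = 0.00355). Ep300 and Crebbp, related acetyltransferases that CREB recruits, fell by 0.35 and by 0.32 on the log2 scale (limma adjusted p = 0.00666 and 0.0155), with no overlap between groups in either gene. Over all genes tested, 17.7% had every UtyGT library below every WT library. Creb1 fell by 0.33 on the log2 scale (limma adjusted p = 0.0331). Crtc2 and Ep300 kept their calls without any single library (adjusted p up to 0.0335 and 0.05), Crebbp lost its own without WT e, WT f or UtyGT d (adjusted p from 0.0616 to 0.0866) and with quantile normalization (0.0503), and Creb1 lost its own without WT e, f or g or UtyGT d (from 0.0534 to 0.153) and with upper-quartile scaling or quantile normalization (0.0544 and 0.0575). Crem, Atf1, Crtc1 and Crtc3 had log2 fold changes between -0.07 and 0.02 and did not pass.

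Of 10 early genes known to be induced by cyclic AMP among other stimuli, 5 rose and 1 fell, with a list median of 0.33. Over all genes tested 4.55% rose and 6.12% fell. Besides Fos (log2 fold change 1.2 ± 0.09, limma adjusted p = 2.37e-05), the early genes that rose included Nr4a1, an orphan nuclear receptor gene, with 1456, 1500 and 1551 normalized counts in WT e, f and g and 2464, 3072 and 2598 in UtyGT d, e and f, and Dusp1, a phosphatase of MAP kinases (0.56 ± 0.09, limma adjusted p = 0.00407). Nr4a2 and Nfil3 rose by 0.82 and 0.41 and Nr4a3 fell by 0.39 on the log2 scale. Nr4a2 had 333, 218 and 395 normalized counts and Dusp1 1721, 1342 and 1680 in UtyGT d, e and f, both lowest in UtyGT e as the endothelial sum was, whose part was not tested. Sik1, Per1, Junb and Ppargc1a did not pass. Fos, Nr4a1 and Dusp1 kept their calls without any single library, whereas Nr4a2 lost its own without WT e, f or g or UtyGT d (limma adjusted p from 0.0541 to 0.0651), Nr4a3 without WT e or f (0.0902 and 0.0563), and Nfil3 without WT e, WT f or UtyGT f (0.122, 0.126 and 0.0515). The list was written with the rise of early response genes in these libraries already known. The sources used here do not say how handling of the cells compared between WT and UtyGT.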

How the data were processed

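RNA of 6 cardiomyocyte libraries (TruSeq Stranded kit after ribodepletion) was sequenced. According to the submitters' processing notes and the methods, the authors used CASAVA 1.4, STAR 2.5.1b on GRCm38, featureCounts 1.6.0 and DESeq2 1.22.2. For strand and multi-mapping, the settings are not given in the sources used here. Each deposited signal is a normalized count, that is a read count divided by a size factor of its library, and 100% of values came out as whole reads (tolerance 0.001). The deposited log2 fold changes and their errors, the test score and the p-values of the authors' own comparison were not used.

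Genes with a mean of at least 10 over the 6 libraries (13875) were tested with limma 3.58.1 (R 4.3.3, trended eBayes) on log2(normalized count + 1), a scale that understates changes of low genes, with Benjamini-Hochberg adjustment. Alternatives included edgeR 4.0.16 and DESeq2 1.42.0 on recovered reads. The test was checked on simulated counts drawn independently for each gene. They held no shifts in cell type markers between libraries, so the check does not cover the shifts described above. The 123 rows without a gene name stayed in the table. Coordinates and exon lengths came from GENCODE M21 (GRCm38) and promoters from RefSeq. Libraries with 28283654 to 48377453 reads are 3 isolations a strain. The limma p-values set the group difference against the spread between isolations, moderated toward a trend over all genes. The members and lists were chosen with earlier results of these data known. Named were all 9 members, the genes of small counts, and up to 3 genes of each list with the smallest adjusted p. Gna11, Gnas, Prkaca, Prkacb, Popdc2 and the phospholipase C genes were named for their roles after their values were seen. Values of the list of other adrenergic receptors are not reported here.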

Additional observations from a re-analysis of the deposited data

How the results depend on the processing

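Rgs2 rose under each of 18 alternatives (12 other settings and 6 fits without 1 library), and none of the 9 genes fell under any. The number that rose was 2 with upper-quartile scaling (Adcy6, log2 fold change 0.21) and 3 with quantile normalization (Adcy5 0.23 and Adcy6 0.25), and 1 without any single library. Of 162 member fold changes, 154 kept direction and side of the threshold and 3 became calls. The other 5 reversed: Adra1a ranged from -0.04 to 0.11 and Adra1b from -0.09 to 0.05 when libraries were left out, and Pde3a was 0.03 with quantile normalization. The Adcy5 to Adcy6 ratio ranged from -0.07 to 0.03 likewise. Over the whole table, 1004 rose with no filter, 76 rose and 70 fell without the variance trend, and without single libraries 164 to 1001 rose and 233 to 1231 fell. Over the pathway lists, 15 rose with no filter, 2 rose and 0 fell without the trend, and 3 to 15 rose and 3 to 14 fell without single libraries. Per kb of the longest coding transcript, WT levels were 88.9 for Adrb1, 189 for Adra1a, 295 for Adcy5, 583 for Adcy6, 1467 for Pde4b, 380 for Pde4d and 117 for Rgs2. The causes were not tested. With a replicate block for the shared letters e and f, 1 member rose (Rgs2 1.14) and 0 fell, as did 635 and 747 genes of the table and 11 and 9 of the pathway lists, and Rgs6, Akap5 and Creb1 lost their calls. Only 2 letters are shared, and the labels do not say that they pair libraries, so the libraries were not treated as paired. Deviations of the same-letter libraries correlated at 0.11 and 0.15, the highest among all pairs of a WT and a UtyGT library, with the other pairs between -0.15 and 0.08. Adrb1 had the fewest reads of the 9 genes in each library, 172 to 384, which limits its precision.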
